A study of Manis javanica with 3 samples.

Results

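Genes of acute phase and carrier plasma proteins make up the subject here: 10 symbols, of which HP, CRP, SAA1, ORM1, HPX and ITIH4 stand for positive acute phase proteins and AHSG, ALB, TTR and RBP4 for negative acute phase or carrier proteins. The members were chosen by symbol, taken from the Swiss-Prot entry of each gene or, failing that, from its KEGG entry, with paralogs told apart by the product name of the NR entry. The list of symbols was itself chosen with levels in these libraries known, so the levels are given as a description. By that rule 9 of the 24220 genes with deposited values were members, 5 positive and 4 negative or carrier, and they stood for 8 of the 10 symbols.

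The data are RNA sequencing counts from Malayan pangolin, Manis javanica. There were 3 libraries, all labelled adult female: small intestine, salivary glands and liver, with 1 library per tissue and no treatment in the labels. Per the paper all tissues came from 1 wild animal that had died during a rescue, so tissue levels in a healthy animal were not measured. No value therefore has a replicate error, and no comparison between tissues was tested. Counts summed to 10158924 fragments in the library labelled small intestine, 8318686 in the salivary glands and 14568778 in the liver. An FPKM above 1 was found for 14392, 13631 and 13810 genes in that order.

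When tissue is injured or infected, cytokines, above all IL-6 acting through STAT3, make hepatocytes raise the output of positive acute phase proteins, many of which bind microbes, free heme or hemoglobin, or block proteases. The same signals lower the output of negative acute phase proteins, most of which carry hormones, vitamins, minerals or fatty acids in plasma. Hepatocytes are the main source of nearly all of them, and the size of each protein's response differs between mammals.

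Labels were checked against marker genes first. In the liver library 29 of 34 genes with hepatocyte marker symbols had an FPKM above 1, with a summed FPKM of 47175 against 193 in the library labelled small intestine and 437 in the salivary glands. Of the sums in those other libraries, 128 and 404 came from gene3649, which has the symbol AMBP and the product name of a kunitz-type protease inhibitor. In the library labelled small intestine, 11 of 15 genes with gastric marker symbols had an FPKM above 1 and their sum was 161000.4, led by PGA (gene4646) at 94138. Of 22 genes with enterocyte symbols 5 passed an FPKM of 1 there, 4 in the salivary glands and 7 in the liver, with sums of 52.1, 53.0 and 156. The enterocyte list thus did not set the library labelled small intestine apart. VIL1 was its highest gene there, at 24.0, while FABP2 and LCT, named after values were seen, had 0 fragments. The library with the high gastric sum is therefore called the library labelled small intestine throughout. Of 13 genes with salivary symbols, 6 had an FPKM above 1 in the salivary glands and 5 in each other library, so their count did not set the salivary library apart. The highest of them, CST3 (gene25022), had an FPKM of 199.8 in the library labelled small intestine and 186 in the salivary glands, while AQP5 had 2.29, 94.3 and 24.7. BHLHA15 had 24.5, 95.9 and 64.8. PIP, a new gene, had 0.481, 28.0 and 0, from 5, 377 and 0 fragments. KLK1 was highest in the liver, at 1.71, 2.27 and 2.83. Summed FPKM of the salivary list was 232 in the library labelled small intestine, 408 in the salivary glands and 153 in the liver.

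Haptoglobin, coded by HP, binds free hemoglobin so that it can be cleared. It was found as 2 genes on separate scaffolds, whose genome build is not given in the sources used here. One, gene25455, lies at NW_016573839.1:5570-9419 on the minus strand and has a deposited length of 401 bases; the other, gene16057, lies at NW_016539977.1:10081-13132 on the plus strand and has 1089 bases. FPKM, fragments scaled to gene length and to the library's mapped fragments, is used here as deposited. Its ratio to TPM recomputed from counts and deposited lengths ran among the members in the liver from 0.431 for HPX to 0.763 for gene25455, so comparisons between genes depend on how length was treated. For gene25455 it was 51.2 in the library labelled small intestine, 6.34 in the salivary glands and 25755 in the liver, from 105, 17 and 95546 fragments. The other HP gene had an FPKM of 15.9, 2.03 and 6882, from 129, 22 and 82732 fragments. Both stood among the 20 highest genes of the liver library by FPKM, at ranks 3 and 11.

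The fragments on the short HP gene numbered 1.15 times those on the long one in the liver (95% interval 1.14 to 1.17), 0.814 times in the library labelled small intestine (0.623 to 1.06) and 0.773 times in the salivary glands (0.385 to 1.52). By FPKM the short gene was 3.74, 3.23 and 3.12 times the long one in the same order. Fragments divided by deposited length gave ratios of 3.14, 2.21 and 2.10. In the liver the short gene was thus ahead in fragments as well, while in the other libraries the interval of the fragment ratio included 1. Whether they are separate genes or pieces of 1 gene cannot be told from these files. Intervals here and below are exact Poisson or ratio intervals, or Wilson intervals for shares, at 95%, and cover counting error only.

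C-reactive protein, coded by CRP, is a pentraxin that binds phosphocholine on microbes and dying cells and activates complement. Its gene (gene24234, 2136 bases, NW_016561991.1:69099-71847) had an FPKM of 0 in the library labelled small intestine, 0.346 in the salivary glands and 4844 in the liver, from 0, 5 and 112375 fragments. It had more fragments in the liver library than any other member, while by FPKM it came after both HP genes at rank 13. Another gene with the symbol CRP (gene10987) is a neuronal pentraxin receptor by its product name and was set aside; its FPKM was 2.41, 7.95 and 0.0668, lowest in the liver. The related pentraxin APCS (gene16145), serum amyloid P component, had 0 fragments outside the liver and an FPKM of 348 there.

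Alpha-1-acid glycoprotein, coded by ORM1, binds lipophilic drugs and other small molecules in plasma. The gene (gene2585, 817 bases, NW_016528679.1:164680-168111) had an FPKM of 2.42 in the library labelled small intestine, 2.24 in the salivary glands and 2629.9 in the liver, from 13, 15 and 24945 fragments. It ranked 19th in the liver, and the other libraries were level with each other within counting error. Hemopexin, coded by HPX, binds free heme. Its gene (gene18935, 1514 bases, NW_016544390.1:56999-65768) had an FPKM of 3.04, 0.792 and 297, from 41, 13 and 7361 fragments, and ranked 219th in the liver. HPX was thus the lowest of the 5 positive members in the liver, and HP (gene25455) was 86.7 times as high by FPKM and 49.0 times by TPM recomputed from counts and deposited lengths.

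Serum amyloid A, an apolipoprotein of high density lipoprotein during the acute phase, had no gene under the symbol SAA1. There were 2 genes under the symbol SAA2, which is outside the member rule. For gene26385, serum amyloid A-2 by product name, FPKM was 0 in the library labelled small intestine, 0 in the salivary glands and 1555.8 in the liver, from 13786 fragments and at rank 35. For gene14397, an A-4-like product, it was 0, 0 and 156, from 2698 liver fragments. Both had fragments in the liver library alone. The floor of 3 fragments used for a count of 0 would be 0.0368% and 0.188% of their liver levels in the library labelled small intestine.

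ITIH4, a heavy chain of the inter-alpha-trypsin inhibitor family, has an entry in the annotation (gene1763) but no row of expression values, and so it was not analysed here. Another gene under the same symbol (gene25267) is heavy chain H6 by product name, was set aside, and had 0 fragments in all 3 libraries. Its relatives ITIH3 (gene1764) and ITIH1 (gene1765) had a liver FPKM of 157 and 128, against 0.178 and 2.66 in the library labelled small intestine and 1.58 and 2.65 in the salivary glands. ITIH2 had 467 liver fragments, an FPKM of 10.1, and 0 fragments in the other libraries. ITIH5 went the other way, with an FPKM of 27.8 in the library labelled small intestine, 1.67 in the salivary glands and 1.03 in the liver. The inter-alpha heavy chain genes thus did not share 1 pattern across the libraries.

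Beside ITIH3 lies gene1761, a record chosen after its values were seen, with the product transmembrane protein 110 and a length of 14541 bases (NW_016528156.1:618439-663753). It had an FPKM of 32.0, 20.7 and 604 and a liver rank of 101. In the RefSeq order of genes for another assembly of this species, MJ_LKY, ITIH4 and MUSTN1 lie between ITIH3 and STIMATE, the present symbol of transmembrane protein 110. Whether fragments of ITIH4 were counted on gene1761 was not tested.

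Retinol-binding protein 4, coded by RBP4, carries vitamin A from the liver. Its gene (gene19019, 807 bases, NW_016544523.1:81210-89289) had an FPKM of 1.19 in the library labelled small intestine, 0 in the salivary glands and 1987 in the liver, from 7, 0 and 21436 fragments. It was the highest of the negative or carrier members in the liver, at rank 25, and stood close to ORM1, which was 1.32 times as high by FPKM. Transthyretin, coded by TTR, carries thyroxine and binds the RBP4 protein in plasma. Its gene (gene9783, 661 bases, NW_016533841.1:317996-322889) had an FPKM of only 0.431, 0 and 6.77, from 2, 0 and 58 fragments. TTR was at rank 7653 in the liver and RBP4 was 294 times as high by FPKM, so these partner proteins had far unequal transcript levels. The further gene under the symbol TTR (gene10056) is a 5-hydroxyisourate hydrolase by product name and was set aside, with an FPKM of 22.8, 53.1 and 35.1.

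Fetuin-A, coded by AHSG, binds calcium phosphate and keeps it from precipitating. The gene (gene23237, 1557 bases, NW_016556446.1:124086-131557) had an FPKM of 25.9 in the library labelled small intestine, 1.75 in the salivary glands and 699 in the liver, from 336, 29 and 16993 fragments. It was at rank 87 in the liver. Albumin, coded by ALB, is the main protein of plasma and carries fatty acids and many other ligands. Its gene (gene11696, 2062 bases, NW_016535330.1:55330-69727) had an FPKM of 89.1, 0.194 and 434, from 1540, 4 and 10991 fragments. ALB was at rank 156 in the liver and rank 493 in the library labelled small intestine, where it was the highest of the 9 members.

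**Figure D1:**
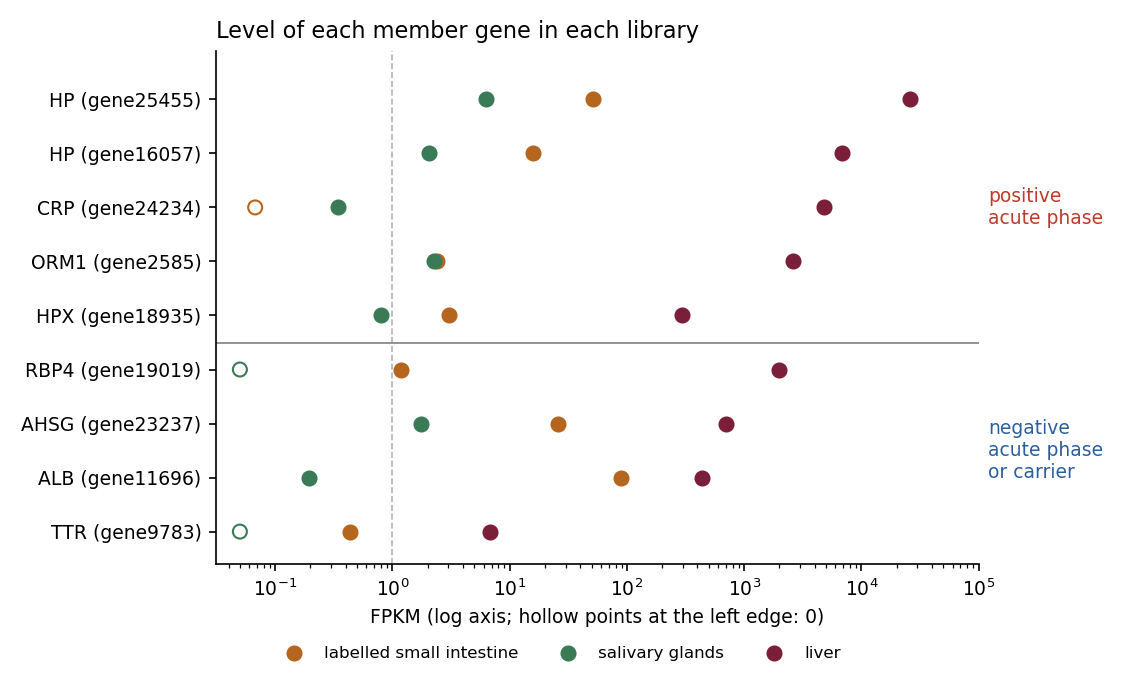
FPKM of each of the 9 member genes (log axis) in the 3 libraries, 1 point per library, with positive acute phase genes above the line and negative or carrier genes below it; hollow points stand for 0 and the dashed line for an FPKM of 1. The liver point is the highest for each gene, from 6.77 for TTR to 25755 for HP (gene25455).

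An FPKM above 1 was reached by 9 of 9 members in the liver, 7 in the library labelled small intestine and 4 in the salivary glands, beside 13810, 14392 and 13631 of all 24220 genes. Summed FPKM over the members was 43535 in the liver, 189 in the library labelled small intestine and 13.7 in the salivary glands, which is 6.99%, 0.0264% and 0.00230% of all FPKM. In fragments the members took 2.56% of the liver library (2.55% to 2.56%). By FPKM most of the liver sum lay with haptoglobin, whose 2 genes held 5.24% of all FPKM there. In fragments those 2 genes took 1.22% of the liver library, out of the 2.56% for all members, so this depended on how length was treated.

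Positive and negative members differed in the liver. The 5 positive members summed to an FPKM of 40408 there and the 4 negative or carrier members to 3127, a ratio of 12.9. Counted in fragments without regard to length, the ratio was 6.53 (6.47 to 6.59). Without the short HP gene, an alternative chosen after its values were seen, the ratio of summed FPKM was 4.69. Positive members were thus ahead in each of these sums, and the size of the lead changed with the short HP gene. In the library labelled small intestine the ratio by FPKM was 0.622, from sums of 72.5 and 117, with ALB alone giving 89.1. In the salivary glands it was 6.05, from sums of 11.8 and 1.94. In fragments these ratios were 0.153 (0.134 to 0.173) and 2.18 (1.43 to 3.40).

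The roles overlapped in the order of liver levels. By FPKM the order was HP (gene25455), HP (gene16057), CRP, ORM1, RBP4, AHSG, ALB, HPX and TTR, and 6 of the 9 members stood among the 100 highest genes. Of these, 4 were positive and 2, RBP4 and AHSG, were negative or carrier. HPX, a positive member, stood below 3 of the 4 negative or carrier members. Its distance from ALB depended on how length was treated: ALB was 1.46 times HPX by FPKM and 1.10 times by recomputed TPM.

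**Figure D2:**
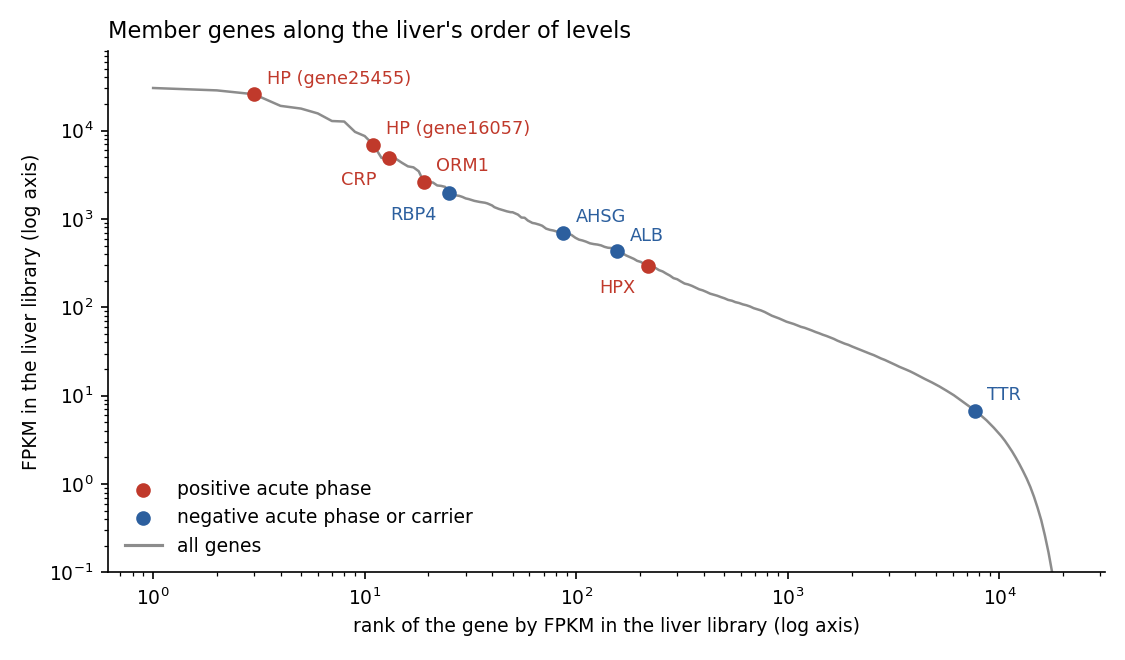
FPKM in the liver library against the rank of each gene by FPKM, both on log axes; the line runs over all genes and the points mark the members, red for positive and blue for negative or carrier. The 4 highest members, at ranks 3 to 19, are positive, and TTR stands apart at rank 7653.

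Folds between libraries were taken on counts scaled by TMM, a method that sets the trimmed mean of log ratios over genes to 0, among genes with at least 10 fragments in either library. At least 2-fold higher in the liver than in the library labelled small intestine were 9 of 9 members, beside 24.0% of 17399 genes. Against the salivary glands it was 9 of 9, beside 24.9% of 17162 genes. A level at least 100-fold higher in the liver was found for 6 members against the library labelled small intestine, beside 1.0% of genes, and for 8 against the salivary glands, beside 1.26%. Over the members the median log2 fold was 8.57 against the library labelled small intestine and 10.83 against the salivary glands, and over all genes it was 0.08 and 0.07. Since the symbols were chosen with these levels known, nothing is read from the counts. Fewer cells of a type and less RNA per cell cannot be told apart in such bulk libraries.

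Each of the 5 positive members was past 100-fold against the library labelled small intestine on scaled counts; by deposited FPKM HPX fell below it, at a log2 fold of 6.61. HP was 538-fold (444 to 657) and 379-fold (319 to 454) higher in the liver for its 2 genes. ORM1 was 1134-fold higher (663 to 2129) and HPX 106-fold (78.1 to 148). CRP, with 0 fragments there, was at least 22128-fold higher when 3 fragments were put in place of 0. HPX was thus the member nearest the threshold of 100, and its interval spanned it.

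Negative or carrier members were mostly below that fold against the same library. RBP4 was 1809-fold higher in the liver (878 to 4500.0), AHSG 29.9-fold (26.8 to 33.4) and ALB 4.22-fold (4.0 to 4.45). For TTR, with 2 fragments in the library labelled small intestine, the ratio was 17.1 (4.53 to 145). RBP4 was the only 1 of these 4 past 100-fold there, though the interval of TTR spanned that threshold.

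Against the salivary glands the folds of HP, AHSG, ALB and HPX were larger. For RBP4, TTR and CRP a bound on 1 side leaves the order unknown. HP was 3733-fold (2331 to 6408) and 2498-fold (1649.6 to 3986) higher in the liver, CRP 14927-fold (6396 to 45974), ORM1 1105-fold (669.5 to 1974) and HPX 376-fold (219.8 to 707). AHSG was 389-fold higher (271 to 581) and ALB 1825-fold (713 to 6699). RBP4 and TTR had 0 fragments in the salivary glands; with 3 fragments in place of 0, RBP4 was at least 4746-fold higher and TTR at least 12.8-fold, while the lower ends of their 95% counting intervals were 3859-fold and 10.1-fold. For TTR both bounds fell short of 100-fold, since it had only 58 fragments in the liver.

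The libraries other than the liver also differed from each other. Of 6 members with at least 10 fragments in either of them, 5 differed at least 2-fold, beside 37.6% of 16519 genes, and each of the 5 was higher in the library labelled small intestine. ALB was 433-fold higher there (169 to 1591) and AHSG 13.0-fold (8.90 to 19.8). The HP genes were 6.94-fold (4.14 to 12.4) and 6.59-fold (4.17 to 10.9) higher, and HPX 3.55-fold (1.86 to 7.21). ORM1 did not differ at this depth, with a ratio of 0.974 (0.427 to 2.20). CRP, RBP4 and TTR had fewer than 10 fragments in both.

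As a percent of the liver level on the same scale, members in the library labelled small intestine ran from 0 for CRP to 23.7% for ALB (22.5% to 25.0%). AHSG stood at 3.35% (3.0% to 3.73%), HPX at 0.943% (0.676% to 1.28%), and the HP genes at 0.186% (0.152% to 0.225%) and 0.264% (0.220% to 0.314%). ORM1 was at 0.0882% (0.0470% to 0.151%), RBP4 at 0.0553% (0.0222% to 0.114%) and TTR, from 2 fragments, at 5.84% (0.691% to 22.1%). The members thus did not keep 1 common ratio to their liver levels in that library. In the salivary glands HPX at 0.266% (0.142% to 0.455%) and AHSG at 0.257% (0.172% to 0.369%) were level within counting error, and ALB was at 0.0548% (0.0149% to 0.140%). TTR had 0 fragments there, with an interval up to 9.89%. ALB, the member nearest its liver level in the library labelled small intestine, was thus not so in the salivary glands.

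Hepatocyte markers were set beside these values. Of 34 genes with a marker symbol, 22 were kept: those with the marker's product name, by patterns written after values were seen, other than 3 new genes of TDO2 and C8A that carry that name too. Their summed FPKM was 51.7 in the library labelled small intestine, 17.5 in the salivary glands and 46016 in the liver, where FGB was the most abundant at 12822. In the library labelled small intestine 10 of the 22 had 0 fragments, among them FGB, FGG, TAT, APOC3 and ASGR1. With each count of 0 taken as 0, the median was 0.00295% of the liver level against 0.264% for the members. The floor of 3 fragments would be 0.00166% of the liver level for FGB, but 1.34% for ASGR1 and 2.56% for F9. The median of the markers thus depends on how 0 is treated, and nothing is read from its distance to that of the members. The highest marker was F2 at 7.86% (6.93% to 8.89%), below ALB. In the salivary glands 13 of the 22 had 0 fragments and the median taken in the same way was 0, against 0.0400% for the members. The floor of 3 fragments would there be 0.0936% for APOC3, 1.19% for ASGR1 and 2.28% for F9, each above that median of the members. Depth therefore leaves the order of these medians undecided. F2 was again the highest marker, at 7.04%. The markers thus did not move as 1 block. Of the fibrinogen chains, FGB and FGG had 305441 and 254227 fragments in the liver and 0 in both other libraries, and FGA had 536135 in the liver, 2 in the library labelled small intestine and 5 in the salivary glands. Above 1% of the liver level in the library labelled small intestine were 5 of the 22 markers, among them VTN at 2.44% and TDO2 at 1.48%, and 3 of the 9 members. The part of hepatocyte RNA in the members' levels outside the liver was not tested beyond these values.

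**Figure D3:**
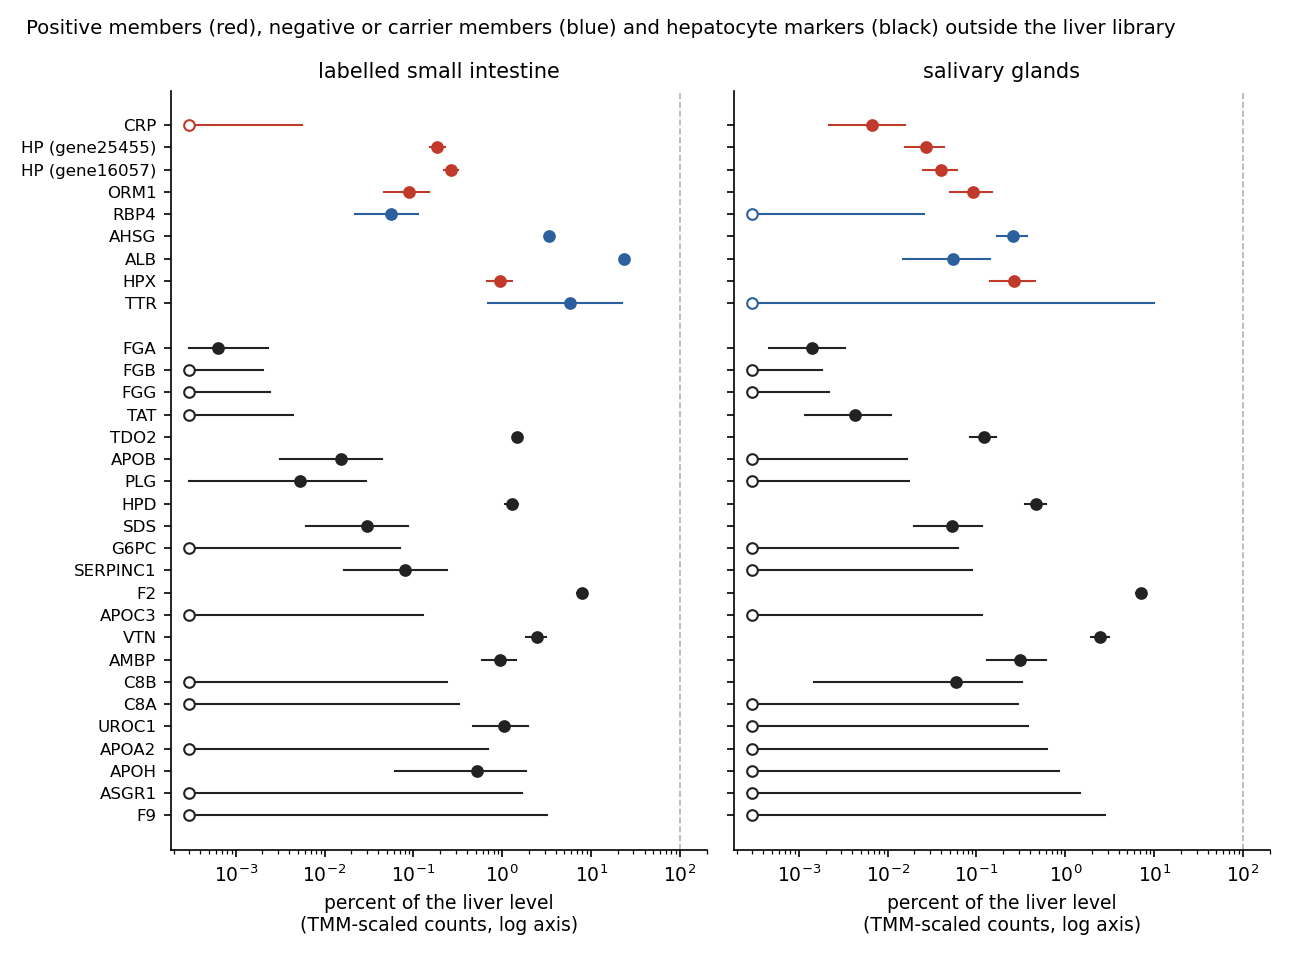
Level of each member and of 22 hepatocyte markers in the library labelled small intestine and in the salivary glands, as a percent of the liver level on TMM-scaled counts (log axis), with 95% counting intervals; hollow points stand for 0 fragments and the dashed line for 100%. ALB at 23.7% is the highest point in the library labelled small intestine, while FGB and FGG have 0 fragments in both.

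Neighbours of the members on their scaffolds had their own patterns. AHSG lies in a row with FETUB, HRG and KNG1, which code for related proteins with cystatin-like domains. FETUB had an FPKM of 1.94 in the library labelled small intestine, 0.718 in the salivary glands and 40.2 in the liver. HRG had 0.488, 20.6 and 23.1, and KNG1, the kininogen gene, had 6.62, 363 and 175. Unlike AHSG, KNG1 was thus higher in the salivary glands than in the liver. In the row of ALB, alpha-fetoprotein (gene11697) had 0, 0 and 73 fragments and afamin (gene11698, under the symbol AFP) had 2, 0 and 49. Next in that row gene11699, alpha-fetoprotein-like by product name, had 2, 7 and 212. ALB was the 1 gene of this row with more than 2 fragments in the library labelled small intestine. On another scaffold gene17439, also alpha-fetoprotein-like, had 1, 0 and 2912 fragments and a liver FPKM of 71.2. The vitamin D carrier GC, also of the albumin family, had 0 fragments in both other libraries and an FPKM of 423 in the liver.

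Nearest to HP (gene25455) in log2 FPKM over the 3 libraries, by straight-line distance with 1 added to each FPKM, were APOE at 2.73, the other HP gene at 2.81 and TDO2 at 3.63. For RBP4 the nearest were SAA2 (gene26385) at 1.18, C3 (gene13195) at 1.26 and PPCK1 at 1.31. Only 3 libraries enter these distances. At least 100-fold higher in the liver than in both other libraries were 136 genes, 6 of them members. The 5 of these with the highest liver FPKM were HAMP at 30304, HP (gene25455), IGFBP1 at 19034, FGB at 12822 and FGG at 12649.

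Other positive acute phase genes numbered 44 under 20 of 30 listed symbols, and 29 had an FPKM above 1 in the liver, 16 in the library labelled small intestine and 16 in the salivary glands. This list and those of other negative and carrier genes were found by symbol alone and hold relatives with another product name, whereas the members were sorted by product name and chosen with their levels known. The medians are therefore no like for like comparison. The median FPKM in the liver was 66.5 here and 4844 for the positive members. HAMP, which codes for hepcidin, had an FPKM of 3.07, 0 and 30304 and was the highest gene of the liver library. The fibrinogen genes FGB, FGG and FGA followed at 12822, 12649 and 9658. By FPKM, HP (gene25455) stood between hepcidin and fibrinogen in the liver, but its 95546 fragments were fewer than those of HAMP, at 116179, and of each fibrinogen gene.

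Of 25 other negative acute phase genes, 20 had an FPKM above 1 in the liver, 10 in the library labelled small intestine and 7 in the salivary glands, with a liver median of 10.1, where the negative or carrier members had 567. The highest were APOA1 at 453 and GC at 423. Among 33 other carrier genes, 23 passed an FPKM of 1 in the liver, 9 in the library labelled small intestine and 11 in the salivary glands, and the liver median was 7.58. A2M (gene23188) had 375 there, and the symbol AMBP on gene3649, whose product is a kunitz-type protease inhibitor, had 404 in the salivary glands. RBP4 and AHSG were above the highest gene of both these lists in the liver, APOA1. A gene may be on more than 1 of these lists.

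**Figure D4:**
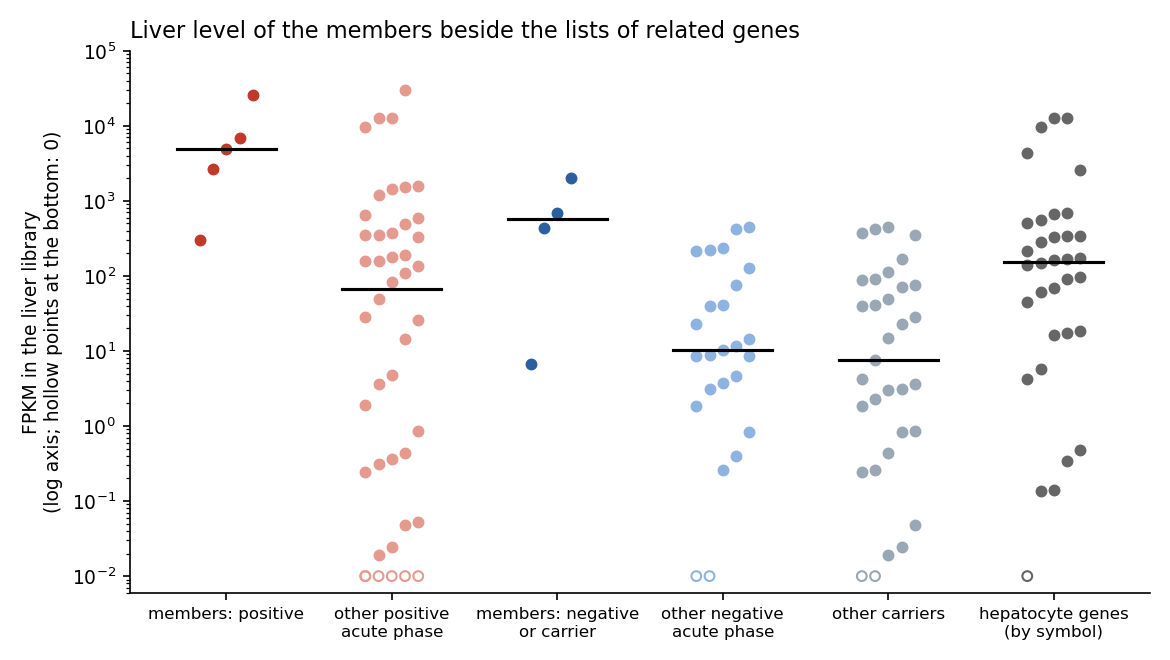
FPKM in the liver library (log axis) of the members and of the lists of related genes, 1 point per gene, with the median as a bar and hollow points for 0. The medians are 4844 for positive members, 567 for negative or carrier members, and 66.5, 10.1 and 7.58 for the other positive, other negative and other carrier genes, which were found by symbol alone.

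Cytokines that induce the acute phase response were listed by symbol. Of 14 genes under the listed cytokine symbols, 6 had an FPKM above 1 in the library labelled small intestine, 3 in the salivary glands and 6 in the liver. Over all 24220 genes these numbers were 14392, 13631 and 13810. Some of the 14 were other proteins by product name, so nothing is read from their count. Among these were gene10958 under IL1B, interleukin-36 gamma, and gene12507 under TNF, tumor necrosis factor ligand superfamily member 15. IL6 had an FPKM of 6.23, 0.605 and 0, from 25, 3 and 0 fragments, and IL1B (gene5231) had 11.4, 1.72 and 4.37, from 177, 34 and 116. TNF (gene9656) had 10, 9 and 18 fragments. IL6 was thus not detected in the liver at this depth, where 3 fragments make 0.206 CPM.

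Receptor and signal genes act upstream of the acute phase response. The IL-6 receptor gene IL6R had an FPKM of 30.6 in the library labelled small intestine, 91.5 in the salivary glands and 301 in the liver. STAT3, the transcription factor downstream of it, had 85.4, 65.5 and 211, and SOCS3 (gene18672), which STAT3 induces and which dampens the signal, had 106, 59.6 and 143. The shared receptor subunit, found under the symbol LIFR (gene5405), had 21.2, 9.68 and 95.3. These 4 had the highest liver FPKM of 39 genes under the listed symbols, and each was highest in the liver. Others of the list were not, such as TLR4 (gene12208) at 0.430, 7.73 and 3.40. At least 2-fold higher in the liver were 13 of 36 genes against the library labelled small intestine, beside 24.0% of all genes, and 15 of 36 against the salivary glands, beside 24.9%; some of the 36 were other proteins by product name. Among transcription factors SREBF1 (gene25964) had an FPKM of 181, 51.3 and 107, CEBPD, a new gene whose product name is a hypothetical protein, had 98.3, 157 and 101, and CEBPB had 40.4, 73.6 and 151. These factors did not share 1 order across the libraries.

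Uptake of the proteins' complexes was not measured, and only RNA levels of genes that take part in it are given. CD163, the macrophage receptor for the complex of haptoglobin and hemoglobin, had under that symbol (gene12806, a scavenger receptor cysteine-rich type 1 protein) an FPKM of 7.67, 6.96 and 61.0. FCGRT, part of the receptor that returns albumin to the circulation, had 83.8, 113 and 69.3. HMOX1, which breaks down heme, had 15.0, 10.9 and 33.5. By FPKM, CD163 and HMOX1 were highest in the liver, as HP and HPX were. FCGRT was lowest there by FPKM, but on TMM-scaled counts it was 1.01 times its level in the library labelled small intestine. STRA6, the RBP4 receptor (gene2986), had 2, 2 and 0 fragments. Many of the 34 genes under uptake symbols were other proteins by product name, so no count over them is given.

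Partners of RBP4 in retinol handling were listed by symbol. Many of the 29 genes found were other proteins by product name, above all those under the symbol CUBN, so no count over the list is given. RDH10 had an FPKM of 17.4, 14.3 and 52.3, and CRABP2 had 21.8, 0 and 0. RBP4 was thus above both in the liver and below both in the library labelled small intestine.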

How the data were processed

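RNA of 3 tissues was sequenced in pairs, and the authors aligned reads with TopHat2, without regard to strand, and joined reads outside known genes with Cufflinks. A gene's deposited count is a whole number of fragments, not scaled between libraries; the tool that made it is not given in the sources used here. FPKM values, for which the paper names RSEM, and lengths are as deposited by the authors. A further deposited score, the count times 1 factor per library for most genes, was read only to check counts. Counts were scaled by TMM with edgeR 4.0.16 in R 4.3.3, and DESeq2 1.42.0 gave an alternative. Intervals came from scipy 1.17.1, tables were handled in pandas 2.3.3 and numpy 2.4.6 under Python 3.11.15, and plots were made in matplotlib 3.10.9. Total counts ran from 8318686 to 14568778 fragments, so 3 fragments make 0.361 to 0.206 CPM. Folds required at least 10 fragments in either library, with 3 put in place of 0. The code was tested on simulated data. With 1 library per tissue, no tests were made. Other scalings, count minimums, floors, FPKM thresholds, lengths and ways to find members were tried.

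The members and lists were chosen with earlier results of these data known. Genes named are the members, genes sharing their symbols, their paralogs, cytokine, receptor, signal and uptake genes, the 4 with the highest FPKM in any library of other lists, the 5 with the highest liver FPKM among those at least 100-fold above both other libraries, and the 3 nearest to the top positive and top negative member. Not every gene that this rule covers is reported here. The gene beside ITIH3 (gene1761) and single marker genes without fragments were chosen after their values were seen.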

Additional observations from a re-analysis of the deposited data

How the results depend on the processing

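Counts of members past 2-fold and 100-fold were within 1.5 times their value under the other scalings, minimums and floors, as were counts among the 100 highest liver genes; with FPKM in place of scaled counts, members past 100-fold over the library labelled small intestine numbered 5 in place of 6, without HPX. Counts were held to 1.5 times and shares, ratios and medians to their counting error; of 80 values under alternatives 65 passed, 15 moved and 0 reversed. The member share of liver FPKM, 6.99%, was 6.31% by recomputed TPM, 2.56% of counts not divided by length, 8.26% without mitochondrial and new genes, 7.26% with members found by product name, which adds both SAA2 genes, and 5.88% with 1 gene per symbol. The ratio of positive to negative members, 12.9, was 9.38, 6.53, 12.9, 13.5 and 10.7 in that order. Chosen after seeing the data, leaving out the short HP gene gave 2.85% and 4.69, and adding gene1761 as a positive gene gave 7.09% and 13.1. Above an FPKM of 5 were 4 members in the library labelled small intestine and 1 in the salivary glands. Added or dropped genes account for their own shifts; for the length and threshold alternatives the cause was not tested. Of 72 log2 folds under other scalings 69 stayed within counting error, 3 moved (ALB and AHSG over the library labelled small intestine) and 0 changed sign. Library size alone shifted the median log2 fold of all genes by 0.24 over the library labelled small intestine, and it fell by 0.22 over the salivary glands. Depth limits TTR, with 58 liver fragments, and members at 0 to 5 fragments. Unstranded counting and the short HP model limit what the levels of single genes mean.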

Other observations

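Hemoglobin and heme are the ligands of haptoglobin and hemopexin. Of 10 listed erythroid symbols only 4 were found, with 5 genes. Among these 5 the highest FPKM in any library was 3.82, for HBB (gene18135). It had 15 fragments in the library labelled small intestine, 0 in the salivary glands and 4 in the liver.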
